A study of Mus musculus with 6 samples.

Results

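A set of 9 genes of extracellular matrix breakdown are described here in 4T1 breast carcinoma cells: the matrix metalloproteinases (MMPs) Mmp3, Mmp9, Mmp10, Mmp13, Mmp14 and Mmp15 and the tissue inhibitors of metalloproteinases (TIMPs) Timp1, Timp2 and Timp3. They are 9 of the 24421 genes in the count table, and they were selected by symbol with their values in these libraries already known. Differences between the groups are therefore given for them as a description, with an interval and without a p, and whether the fit over all genes called them is stated as part of that description. The libraries came from 4T1-tetL1(GLucAI) cells, a line derived from a mammary carcinoma of a BALB/cfC3H mouse. All 6 cultures carried the same cassette, integrated by the PiggyBac transposase and selected with blasticidin. In it, a doxycycline-responsive promoter drives firefly luciferase and a recoded mouse LINE-1 (L1) retrotransposon with a Gaussia luciferase readout, through a Tet-On 3G transactivator made from an EF1α promoter. The line is a selected population and is not stated to be a single clone. The 3 untreated libraries, whose treatment tag reads vehicle, came from cells that received no doxycycline. The 3 libraries labelled doxycycline came from cells given the drug at 400 ng/mL for 48 h. The comparison addresses what induction of L1 does to the transcriptome of a tumor cell. No library from cells without the cassette was analysed here, so an effect of L1 and an effect of doxycycline itself cannot be told apart. The transcript of the cassette was not analysed here either, and every direction below rests on the labels.

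MMPs are zinc-dependent proteases that cut collagens, laminins, fibronectin and proteoglycans, and they also release growth factors and shed cell surface proteins. Most are secreted as inactive proenzymes and opened by plasmin, by furin-type proteases or by other MMPs, while the membrane-type members act at the cell surface. TIMPs bind the active site of MMPs and hold their activity in check, and in carcinomas the balance of both is linked to invasion and metastasis.

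Of the 9 genes, 8 passed the filter on low counts, and Timp3 did not. In libraries labelled doxycycline the secreted proteases Mmp13, Mmp3 and Mmp9 stood at 59.2, 60.8 and 64.1% of their untreated level. Mmp10 stood at 82.7% and the inhibitor Timp2 at 87.9%. The membrane-type proteases Mmp14 and Mmp15 and the inhibitor Timp1 overlapped between the groups. At an adjusted p under 0.05 in the fit over all genes, 5 of the 8 tested members were lower and 0 were higher, against 2.16% of all 13084 tested genes called lower and 0.925% called higher. Since the 9 genes were picked with this contrast in view, nothing is read from that count.

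Mmp13, Mmp3 and Mmp10 lie in the MMP gene cluster of chromosome 9, and the bases just before their annotated starts are shown because these 3 promoters share letters that were not found in those of the other members with a sequence. The sequences are from RefSeq, build GRCm38.p6, plus strand, and cover the 250 bases before the start: chr9:7445572-7445821 for Mmp3, chr9:7502092-7502341 for Mmp10, chr9:7272264-7272513 for Mmp13 and chr14:54431348-54431597 for Mmp14, shown as the contrast. Capitals mark TGAGTCA or its reverse complement TGACTCA, the letters bound by AP-1 (Fos and Jun dimers) and searched on both strands. They also mark TATAAA, the letters of a TATA box, searched on the gene's own strand.
Mmp3: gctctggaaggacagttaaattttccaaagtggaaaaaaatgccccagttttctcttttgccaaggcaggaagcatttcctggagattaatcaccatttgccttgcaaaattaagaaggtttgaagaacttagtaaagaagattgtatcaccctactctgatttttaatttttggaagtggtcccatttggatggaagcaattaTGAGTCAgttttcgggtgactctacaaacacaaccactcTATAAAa
Mmp10: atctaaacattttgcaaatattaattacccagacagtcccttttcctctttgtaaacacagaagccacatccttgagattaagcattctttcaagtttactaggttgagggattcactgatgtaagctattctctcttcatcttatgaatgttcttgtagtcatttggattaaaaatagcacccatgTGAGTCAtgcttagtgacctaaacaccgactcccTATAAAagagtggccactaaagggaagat
Mmp13: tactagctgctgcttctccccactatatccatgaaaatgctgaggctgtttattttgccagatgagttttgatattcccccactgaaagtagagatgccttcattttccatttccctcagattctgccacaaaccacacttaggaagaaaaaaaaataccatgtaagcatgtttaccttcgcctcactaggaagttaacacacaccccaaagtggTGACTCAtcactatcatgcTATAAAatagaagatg
Mmp14: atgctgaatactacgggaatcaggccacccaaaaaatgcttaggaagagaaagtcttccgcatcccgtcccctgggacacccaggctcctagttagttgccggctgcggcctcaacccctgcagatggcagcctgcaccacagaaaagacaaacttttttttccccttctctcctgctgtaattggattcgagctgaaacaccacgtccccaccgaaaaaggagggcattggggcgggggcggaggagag
A promoter sequence was found for 8 of the 9 members and not for Mmp9. The AP-1 letters occurred in the windows of Mmp3, Mmp10 and Mmp13, at 46, 63 and 35 bases before the start, and in 0 of the 5 other members with a sequence. TATAAA occurred in the same 3 windows, at 7, 29 and 16 bases before the annotated start of Mmp3, Mmp10 and Mmp13. It occurred in 0 of the other 5. Whether these letters act as a TATA box was not tested. Of 32851 mouse promoter windows of this length, 4.46% held the AP-1 letters and 7.59% held TATAAA. The letters AGGAAG, read by Ets factors such as PEA3 and searched on both strands, was in the windows of Mmp3, Mmp13, Mmp14, Timp1 and Timp3 and in 29.48% of all windows. The NF-κB motif was in the window of 0 of the 8 members and in 7.25% of all windows. Of the searched letters, none that matched in a member's window overlapped those of another motif. These are matches of letters and say nothing of which factor was bound.

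Library totals ranged from 33537520 to 43631312 counts in the untreated group and from 31653464 to 41264244 in the doxycycline-labelled group. At these depths 3 counts correspond to 0.0683 to 0.0944 CPM (each library's counts scaled to a common size, with TMM factors), which is the floor set by counting error alone. The number of 3 libraries per group, and a common biological coefficient of variation of 6.04%, set the precision of the differences. Over all tested genes the median log2 fold change was 0.002. The carcinoma identity of the cells was visible in the keratins and other epithelial markers, of which 8 of 8 were tested and which summed to 1837.7 to 1923.0 CPM in untreated and 1785.2 to 2021.0 CPM in doxycycline-labelled libraries. Of these 8, Krt19, a keratin of simple epithelia, was called lower, from 63.5 ± 2.15 to 51.4 ± 4.22 CPM (-0.31 on the log2 scale, SE 0.06, adjusted p 0.00782 by edgeR), and 0 were called higher. Its part in the values of the members was not tested.

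Stromal and myeloid cells are major sources of MMPs in tumors, so their markers were read beside the members. Endothelial markers summed to at most 0.862 CPM in any library, with 5 of 5 under 1 CPM throughout. Macrophage and neutrophil markers summed to 10.6 to 13.1 CPM in untreated and 10.1 to 11.7 CPM in doxycycline-labelled libraries, with Adgre1 and S100a9 at 0 counts in all 6 and 7 of 8 under 1 CPM. Of 8 fibroblast markers, 6 were under 1 CPM throughout, and of the 4 tested, 3 had a log2 fold change below 0 and 1 above. The 8 summed to 36.9 to 39.9 CPM in untreated and to 28.9 to 30.2 CPM in doxycycline-labelled libraries. Almost all of that sum was Pdgfra, a growth factor receptor (36.7 ± 1.37 against 27.8 ± 0.669 CPM, SD, n = 3 each, -0.40 on the log2 scale with SE 0.07, adjusted p 9.52e-04 by edgeR), and Col3a1 and Lum were at 0 counts in all 6. Pdgfra thus moved in the same direction as the secreted MMPs, and its part in their values was not tested. In such bulk RNA, fewer cells that make a transcript and less of it per cell cannot be told apart.

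Mmp3 encodes stromelysin-1, which cuts proteoglycans, laminin and fibronectin and activates other MMP proenzymes (chromosome 9, 7445822 to 7455975, protein-coding, GRCm38, as for all positions here). It had 179.2, 162.9 and 160.8 CPM in untreated replicates 1 to 3 and 100.6, 98.5 and 106.5 CPM in doxycycline-labelled replicates 1 to 3. The groups were far apart compared with their spread: the lowest untreated library lay above the highest labelled doxycycline by more than either group's own range. The means were 167.6 ± 10.1 and 101.9 ± 4.09 CPM (SD, n = 3 each), and the log2 fold change was -0.72 (SE 0.05, 95% interval -0.83 to -0.61). This was the most abundant MMP transcript in these cells, resting on 3200 to 7870 counts per library.

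Mmp10 encodes stromelysin-2, a close relative of Mmp3 that lies in the same cluster (chromosome 9, 7502342 to 7510242). It measured 43.1, 44.5 and 43.4 CPM in untreated libraries and 38.6, 37.9 and 31.8 CPM in those labelled doxycycline. The groups did not overlap, but doxycycline-labelled replicate 3 stood below the other two, and the untreated libraries were closer to one another. The means were 43.7 ± 0.735 and 36.1 ± 3.74 CPM and the log2 fold change was -0.27 (SE 0.07, 95% interval -0.42 to -0.13). Without doxycycline-labelled replicate 3 this became -0.19 and was no longer called, and the call was also lost without any one of the untreated libraries. The RPKM ratio of Mmp3 to Mmp10 went from 3.67 ± 0.263 in untreated to 2.73 ± 0.41 in doxycycline-labelled libraries, without overlap, so both stromelysins did not differ by the same factor.

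Mmp13 encodes collagenase-3, the main fibrillar collagenase of rodents (chromosome 9, 7272514 to 7283333). Its values were 50.2, 46.4 and 48.8 CPM in untreated libraries against 30.5, 27.8 and 28.0 CPM in those labelled doxycycline. Every untreated library was above every one labelled doxycycline, and the spread within a group was small. The means were 48.5 ± 1.92 and 28.7 ± 1.53 CPM and the log2 fold change was -0.76 (SE 0.07, 95% interval -0.89 to -0.62). The RPKM ratio of Mmp3 to Mmp13 was 5.14 ± 0.217 in untreated and 5.27 ± 0.378 in doxycycline-labelled libraries. The groups overlapped in it, so Mmp3 and Mmp13 differed between the groups by a like factor.

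Mmp9 encodes gelatinase B, a protease of type IV collagen and denatured collagen that lies outside the cluster (chromosome 2, 164940326 to 164955850). It had 74.7, 78.9 and 80.6 CPM in untreated libraries and 51.2, 53.0 and 45.9 CPM in those labelled doxycycline. Again the groups were separate, with the labelled group lower in every library. The means were 78.1 ± 3.07 and 50.0 ± 3.73 CPM and the log2 fold change was -0.64 (SE 0.06, 95% interval -0.77 to -0.51). The calls of Mmp3, Mmp9 and Mmp13 were kept in all 16 alternative fits that were run.

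**Figure D1:**
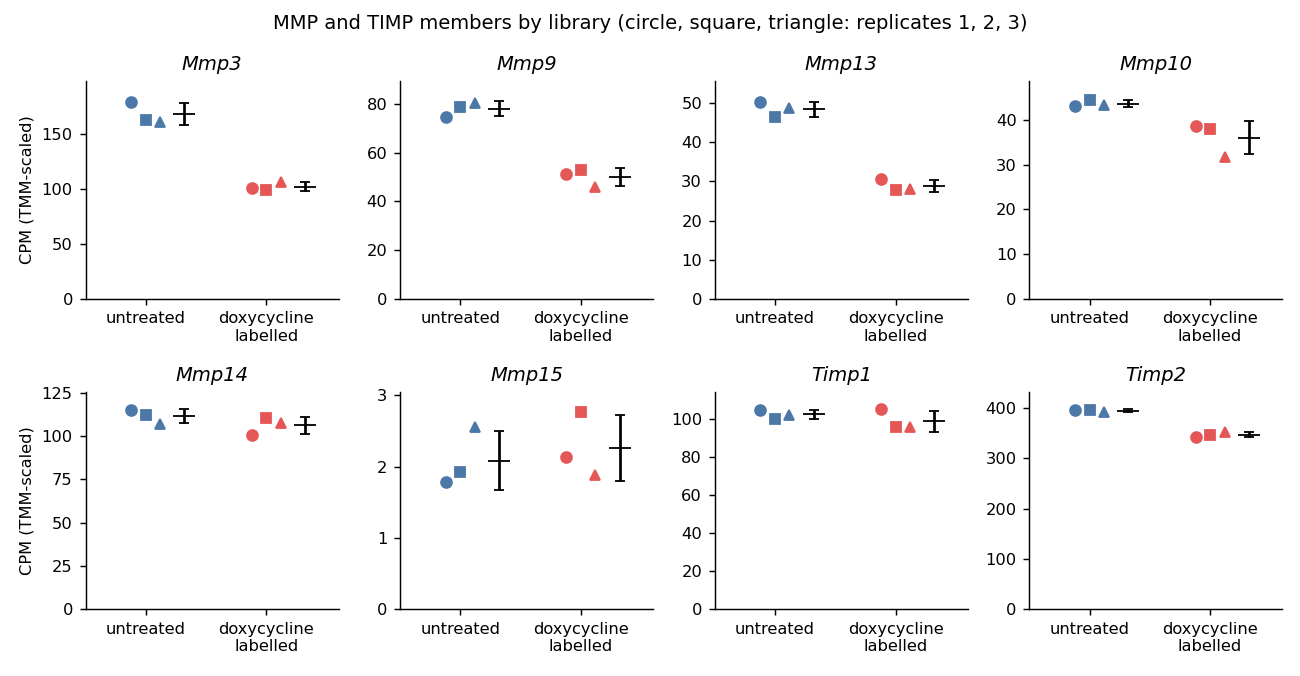
Level of each tested member in CPM (y axis from 0, TMM-scaled, one panel per gene) in the 3 untreated and 3 doxycycline-labelled libraries; black bars are the mean ± SD. Mmp3, Mmp9, Mmp13, Mmp10 and Timp2 do not overlap between the groups, with Mmp3 at 160.8 to 179.2 against 98.5 to 106.5 CPM, while Mmp14, Mmp15 and Timp1 do.

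Mmp14 encodes the membrane-type protease MT1-MMP, a cell surface collagenase that activates the Mmp2 proenzyme (chromosome 14, 54431598 to 54442456). It measured 115.1, 112.1 and 107.0 CPM in untreated libraries and 100.6, 110.2 and 107.5 CPM in those labelled doxycycline. The groups overlapped. The means were 111.4 ± 4.09 and 106.1 ± 4.99 CPM, and the 95% interval of the log2 fold change of -0.07 (SE 0.05) ran from -0.18 to 0.04. A fall of the size seen for Mmp9 lies outside that interval.

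Mmp15 encodes MT2-MMP, a second membrane-type protease (chromosome 8, 95352296 to 95374293). It was scarce, at 1.78, 1.92 and 2.56 CPM in untreated libraries and 2.14, 2.77 and 1.88 CPM in those labelled doxycycline. The groups overlapped, with a log2 fold change of 0.12 (SE 0.22, 95% interval -0.34 to 0.59). The interval also takes in the value of Mmp10, and without doxycycline-labelled replicate 2 the sign turned to -0.06.

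Timp1 encodes an inhibitor of most secreted MMPs that is also known to bind the Mmp9 proenzyme (chromosome X, 20870166 to 20874737). It had 104.7, 99.6 and 102.1 CPM in untreated libraries and 105.0, 95.6 and 95.4 CPM in those labelled doxycycline. The highest and the lowest value both belonged to the labelled group, so the untreated range lay inside it. The means were 102.1 ± 2.53 and 98.7 ± 5.48 CPM and the log2 fold change was -0.05 (SE 0.05, 95% interval -0.16 to 0.06). Timp1 lies within Syn1 on the opposite strand, and the strand setting of the counting is not stated. Syn1 itself was counted at 0.797 to 1.14 CPM.

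Timp2 encodes an inhibitor that also takes part in the activation of the Mmp2 proenzyme by Mmp14 (chromosome 11, 118301061 to 118355411, overlapping Cep295nl on the same strand). It had 396.5, 396.8 and 392.2 CPM in untreated libraries and 342.3, 346.6 and 352.7 CPM in those labelled doxycycline. The difference was small, yet the groups were far apart for their narrow spread. The means were 395.1 ± 2.59 and 347.2 ± 5.19 CPM and the log2 fold change was -0.19 (SE 0.04, 95% interval -0.27 to -0.10). Leaving out any one untreated library moved it no further than -0.18 but ended the call.

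Timp3 encodes the matrix-bound TIMP, which also inhibits ADAM and ADAMTS proteases (chromosome 10, 86300412 to 86349505). It had 12 counts in untreated replicate 1 and 0 counts in the other 5 libraries, which allows up to 0.0944 CPM there. Timp3 lies within Syn3 on the opposite strand, and Syn3 was counted at 1.76 to 2.98 CPM. No difference could be measured for it at this depth. Of the 8 tested members, 5 had groups that did not overlap with the doxycycline-labelled group lower, where 11.1% of all tested genes had such values.

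**Figure D2:**
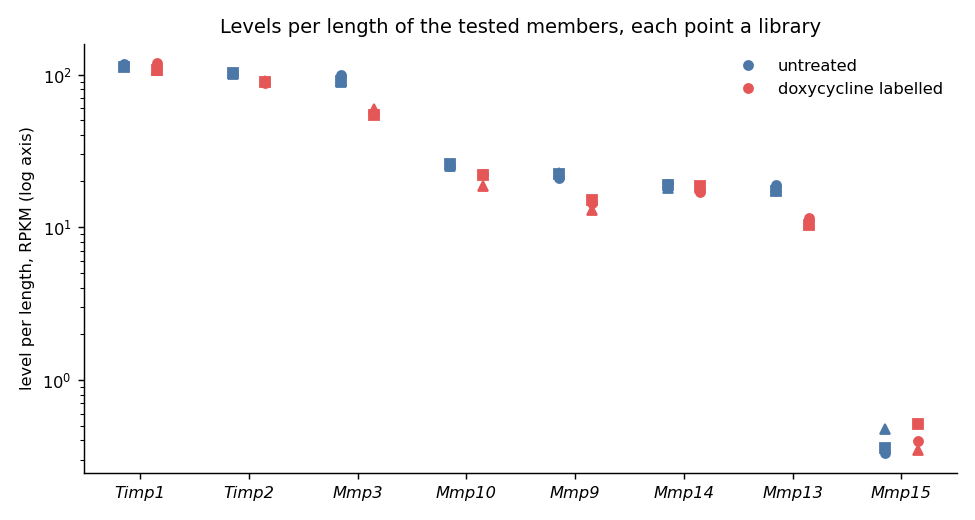
Level per length (RPKM, log axis) of the 8 tested members in each of the 6 libraries, ordered by the untreated mean. The TIMPs Timp1 and Timp2 and the protease Mmp3 lie near 100 RPKM in untreated libraries, the other MMPs except Mmp15 between 17.3 and 25.8, and Mmp15 below 1.

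Levels can be set side by side between genes only per length, so counts were divided by the annotated exon length and are given as RPKM (CPM per kilobase of exon). In untreated libraries Timp1 stood highest at 115.0 ± 2.85, followed by Timp2 at 101.4 ± 0.665 and Mmp3 at 93.1 ± 5.59 RPKM (SD, n = 3 each). Mmp10 followed at 25.4 ± 0.427, Mmp9 at 22.1 ± 0.867, Mmp14 at 18.7 ± 0.686 and Mmp13 at 18.1 ± 0.719 RPKM, with Mmp15 at 0.387 ± 0.0777 RPKM. Mmp14 and Mmp13 did not differ beyond their spread, while each of the other neighbours in this order was separate in its 3 libraries. In doxycycline-labelled libraries Mmp3 fell further behind the TIMPs, at 56.6 ± 2.27 RPKM, and Mmp13 stood at 10.8 ± 0.573 and Mmp9 at 14.1 ± 1.05 RPKM, below Mmp14 at 17.8 ± 0.838 RPKM. The place of Mmp14 depends on the length used: over its longest transcript alone, in place of all its exons, the untreated level was 34.4 RPKM.

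The 6 MMP members together made up 184.0, 175.1 and 174.0 RPKM in untreated libraries and 121.5, 121.1 and 119.4 RPKM in those labelled doxycycline. The sum of the 3 TIMPs was 216.5 ± 2.92 RPKM in untreated and 200.2 ± 5.14 RPKM in doxycycline-labelled libraries. The ratio of both sums, a transcript measure of the balance of proteases and inhibitors and not of their activity, was 0.838, 0.818 and 0.807 in untreated and 0.589, 0.616 and 0.603 in doxycycline-labelled libraries. All 3 measures were lower in the labelled group without overlap. The difference in the MMP sum lay in the secreted members, whose sum was 158.6 ± 5.01 against 102.4 ± 1.62 RPKM. Mmp14 and Mmp15 together gave 19.1 ± 0.61 against 18.2 ± 0.882 RPKM and overlapped. The composition of the MMP transcripts differed too: Mmp3 held 52.4 ± 1.5% of the sum in untreated and 46.9 ± 2.3% in doxycycline-labelled libraries. Mmp14 held 10.5 ± 0.214% in the untreated and 14.8 ± 0.755% in the labelled group. These sums and ratios are made of the selected members and carry no independent weight.

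Within the MMP and TIMP pairs that are known to bind each other, the ratio of Mmp9 to Timp1 was 0.192 ± 0.0113 in untreated and 0.127 ± 0.0103 in doxycycline-labelled libraries. The ratio of Mmp14 to Timp2 ran the other way, at 0.190, 0.185 and 0.178 in untreated and 0.192, 0.208 and 0.199 in doxycycline-labelled libraries. The gap between the nearest libraries in that ratio was narrow.

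**Figure D3:**
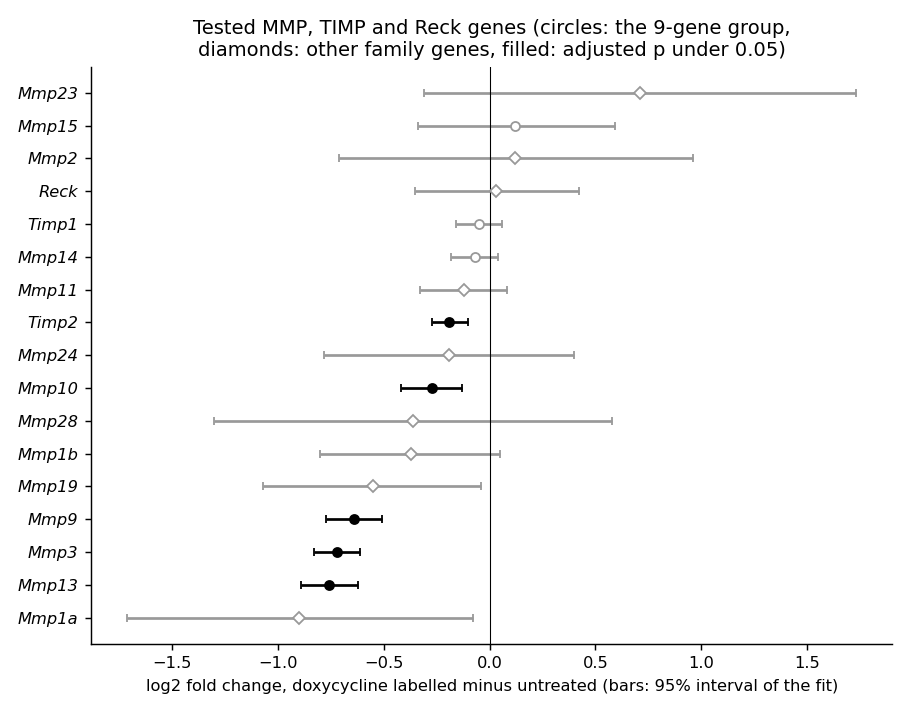
Log2 fold change (doxycycline-labelled minus untreated, x axis) with its 95% interval for each tested MMP, TIMP and Reck gene; circles are members, diamonds the other family genes, and filled marks have an adjusted p under 0.05. The filled marks are Mmp13, Mmp3, Mmp9, Mmp10 and Timp2, from -0.76 to -0.19, and each of the other family genes has a wider interval than these 5.

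The rest of the MMP family was scarce in these cells, apart from Mmp11. Of the 17 MMP genes outside the group, 8 were tested and 0 were called in either direction by edgeR, with 2 at an unadjusted p under 0.05, as were 2119 of the 13084 genes tested in all. Mmp1a, a rodent interstitial collagenase, had 1.04 ± 0.119 CPM in untreated and 0.541 ± 0.326 CPM in doxycycline-labelled libraries (-0.90 on the log2 scale, SE 0.39, adjusted p 0.252 by edgeR). Mmp19, an MMP of wide tissue distribution, had 1.88 ± 0.118 and 1.27 ± 0.267 CPM (-0.55 on the log2 scale, SE 0.25, adjusted p 0.265 by edgeR). Mmp1a and its close copy Mmp1b (log2 fold change -0.37, edgeR adjusted p 0.382) may share reads, so each is uncertain.

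The one well-measured gene among them was Mmp11, stromelysin-3, a protease opened by furin, at 11.5 ± 0.32 CPM in untreated and 10.6 ± 0.369 CPM in doxycycline-labelled libraries (-0.12 on the log2 scale, SE 0.10, adjusted p 0.584 by edgeR). Mmp2, gelatinase A and the substrate of Mmp14, was at 0.525 ± 0.119 CPM in untreated libraries, so little of that proenzyme's transcript was present. Its log2 fold change of 0.12 had a 95% interval of -0.71 to 0.96. Mmp24, Mmp28 and Mmp23 had log2 fold changes of -0.19, -0.36 and 0.71 with edgeR adjusted p-values of 0.801, 0.756 and 0.512. The neutrophil collagenase Mmp8 had 1 count in all, Mmp16 had 2, Mmp21 had at most 16 in any library, and Mmp7, Mmp17, Mmp20 and Mmp25 had 0 counts in all 6 libraries. Over the 23 MMP genes, 14 were tested, 4 were called lower and 0 higher. The median log2 fold change was -0.32, with 11 of 14 below 0. Of all 13084 tested genes, 6443 were below 0 and 2.16% were called lower. All 4 calls in the family are members, which were picked with their values known.

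Of the other MMP inhibitors, Reck, a membrane-anchored inhibitor, had 3.32 ± 0.583 CPM in untreated and 3.41 ± 0.567 CPM in doxycycline-labelled libraries, with a 95% interval of -0.35 to 0.42 for its log2 fold change of 0.03. Timp4 and A2m had 0 counts in all 6 libraries. Timp2 was thus the 1 gene called among the 3 tested inhibitors, beside 2.16% of all tested genes called lower. It is a member picked with its values known, so nothing is read from that count.

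The chromosome 9 cluster spans 427.1 kb (7272514 to 7699585) and holds 10 MMP genes and 0 protein-coding genes of other families. Among the 10, Mmp1a is annotated as a polymorphic pseudogene. Of these 10, 5 were tested and all 5 had a log2 fold change below 0, 3 of them called lower. Of all 13084 tested genes, 6443 were below 0 and 2.16% were called lower. The 3 called in the cluster are the members Mmp13, Mmp3 and Mmp10, in that order along the chromosome. They were picked with their values known, so nothing is read from that count. Mmp1b and Mmp1a lie among them. The remaining genes, Mmp12, Mmp8, Mmp27, Mmp20 and Mmp7, had at most 14 counts in any library and were not tested. Of the 13 MMP genes elsewhere, 9 were tested, 6 had a log2 fold change below 0 and 1, Mmp9, was called lower. In the RefSeq windows, the AP-1 letters shown in the sequences above were found for 7 of the 10 cluster genes (Mmp13, Mmp12, Mmp1b, Mmp3, Mmp1a, Mmp10 and Mmp7) and for 0 of the 8 MMP genes elsewhere with a sequence. TATAAA was found for 7 of the 10 and 1 of the 8. Mmp9 had no sequence and is not among the 8. Mmp12 held the AP-1 letters only at its annotated start 2 of 2, and Mmp7 only at start 1 of 2. Of all windows, 4.46% held the AP-1 letters and 7.59% held TATAAA.

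**Figure D4:**
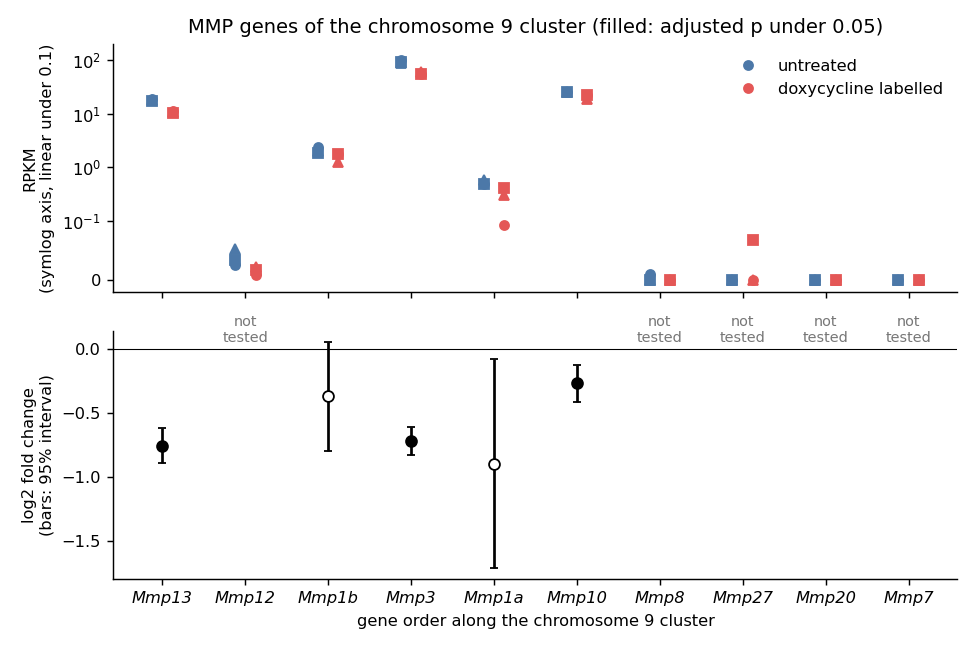
MMP genes of the chromosome 9 cluster in genomic order, not to distance: above, RPKM in each library (symlog axis, linear under 0.1), and below, the log2 fold change with its 95% interval for the 5 tested genes. All 5 lie below 0, from -0.27 for Mmp10 to -0.90 for Mmp1a, and the 3 filled marks are Mmp13, Mmp3 and Mmp10.

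The genes whose profile over the 6 libraries was most like that of Mmp3 were sought among 8781 genes of at least 10 CPM, by the root mean square difference of centred log2 CPM. The nearest was Mmp13 at 0.072, followed by Id2 (0.087), Cyp1b1 (0.113), Lcn2 (0.116) and Cbr2 (0.119). Mmp9 came 13th at 0.132, while Mmp10, from the same cluster as Mmp3 and Mmp13, came 259th at 0.257. For Timp1 the nearest were 2810025M15Rik (0.011), Rsf1 (0.019), St13 (0.020) and Psmd10 (0.021), whose log2 fold changes lay from -0.07 to -0.03. The 6 points share the contrast between the groups, so this likeness takes in the difference between the groups.

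Genes that activate MMPs or hold them at the cell surface were given as a list of 22. Of these, 19 were tested, 2 called lower and 0 higher, with a median log2 fold change of -0.06. Over all tested genes, 2.16% were called lower and 0.925% higher. Lcn2, lipocalin-2, an iron-siderophore carrier described in human as a partner of gelatinase B, fell from 94.4 ± 5.5 to 52.5 ± 3.81 CPM (-0.85 on the log2 scale, SE 0.06, adjusted p 3.27e-08 by edgeR). Plat, tissue plasminogen activator, fell from 18.9 ± 1.98 to 13.8 ± 1.01 CPM (-0.46, SE 0.10, edgeR adjusted p 0.00845). The proprotein convertase Furin (0.02, adjusted p 0.923), the urokinase gene Plau (-0.06, 0.607) and its receptor Plaur (0.17, 0.0721) were not called by edgeR. Neither were Bsg, the MMP inducer basigin (-0.15, 0.0875), or Cd44, a surface docking site of Mmp9 (0.05, 0.629).

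The related ADAM and ADAMTS metalloproteases did not share one direction. Of 18 listed, 12 were tested, 1 was called lower and 3 higher, beside 2.16% and 0.925% of all tested genes. The median log2 fold change of the list was -0.01. Adamts4, an aggrecanase, fell from 11.1 ± 0.853 to 7.4 ± 1.6 CPM (-0.58, SE 0.14, edgeR adjusted p 0.0163). Adam12, a membrane-bound ADAM, rose from 29.2 ± 1.03 to 38.6 ± 1.32 CPM (0.40, SE 0.07, edgeR adjusted p 8.24e-04). Adamts1, a secreted protease of versican, rose from 79.9 ± 4.66 to 99.2 ± 7.46 CPM (0.31, SE 0.06, edgeR adjusted p 0.00359), and Adam19, a relative of Adam12, rose from 39.5 ± 1.43 to 47.8 ± 2.32 CPM (0.28, SE 0.06, edgeR adjusted p 0.014). For these 3 the direction was opposite to that of the secreted MMPs.

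Of 34 listed MMP substrates, 32 were in the table and 26 were tested. Of the 26, 5 were called lower and 0 higher, beside 2.16% and 0.925% of all tested genes. The list was written with earlier results known, so nothing is read from that count. The median log2 fold change of the 26 was -0.05. Nid1, nidogen of the basement membrane, fell from 6.61 ± 0.693 to 3.53 ± 0.214 CPM (-0.91, SE 0.14, edgeR adjusted p 6.36e-04). Spp1, osteopontin, fell from 1877.3 ± 44.3 to 1468.1 ± 30.1 CPM (-0.35, SE 0.04, edgeR adjusted p 1.83e-05). Pcolce, which enhances procollagen processing, fell by 0.27 on the log2 scale (SE 0.05, edgeR adjusted p 0.00299), and the abundant fibronectin gene Fn1 fell by 0.20 (SE 0.05, edgeR adjusted p 0.0159). The last of the 5 was Sdc4, a heparan sulfate proteoglycan of the cell surface (-0.18, edgeR adjusted p 0.0287).

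Among 23 transcription factors known to act on MMP promoters, all 23 were tested. Of them, 1 was called lower and 0 higher, beside 2.16% and 0.925% of all tested genes. The median log2 fold change of the list was -0.04. Cebpb, a bZIP factor, fell from 55.7 ± 2.79 to 47.5 ± 2.36 CPM (-0.23, SE 0.06, edgeR adjusted p 0.04). The AP-1 genes gave no common direction and none was called: Fos stood at -0.64 (edgeR adjusted p 0.0667), Fosl1 at 0.26 (0.0772), Jun at 0.18 (0.121), Jund at -0.13 (0.233) and Junb at 0.02 (0.895). Fosl2 stood at -0.07 (0.537), Fosb at -0.01 (0.976) and Atf3 at -0.41 (0.0882). Of the NF-κB genes, Rela stood at -0.03 (edgeR adjusted p 0.825), Relb at 0.22 (0.324), Nfkb1 at -0.08 (0.403) and Nfkb2 at 0.13 (0.266).

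**Figure D5:**
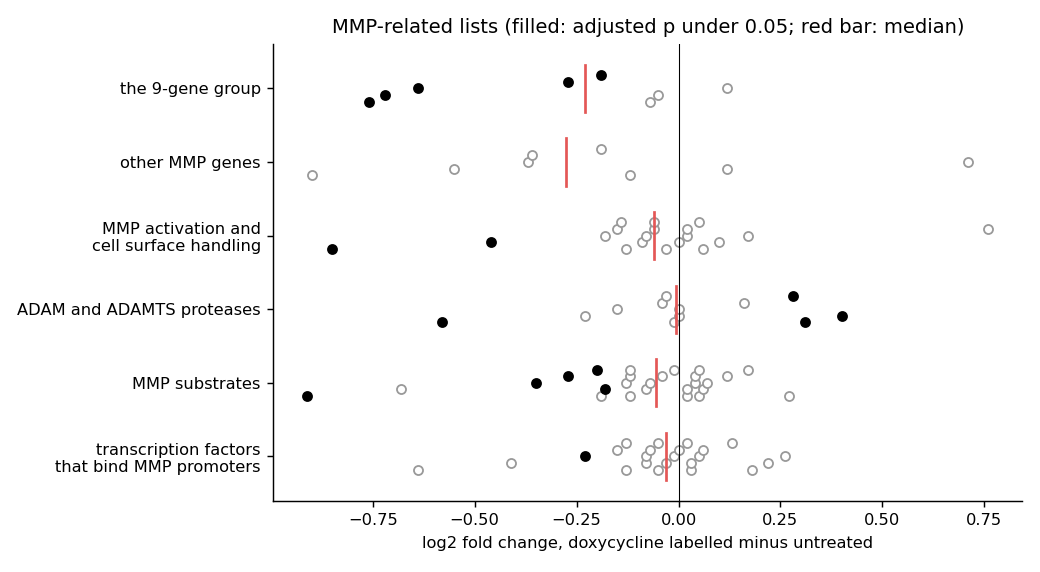
Log2 fold change (x axis) of each tested gene in the member group and in 5 lists, with filled marks for an adjusted p under 0.05 and a red bar for the median. The medians of the activation, ADAM, substrate and transcription factor lists lie between -0.06 and -0.01, and the ADAM list has filled marks on both sides of 0.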

How the data were processed

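Total RNA of 6 cultures was depleted of ribosomal RNA and sequenced. The authors mapped reads to GRCm38 (mm10) using STAR, assigned them to genes using featureCounts and deposited raw counts per gene, replicates apart and not normalized. The submitters' processing notes also name Subread 1.6.2 and bcl2fastq 2.20. The strand setting and the handling of multiply mapped reads are not given in the sources used here, so reads of overlapping genes or near-identical copies may be lost or misassigned.

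Groups came from the sample titles, and 0 columns were left unmatched. Counts were tested in R 4.3.3 with edgeR 4.0.16, by its quasi-likelihood method (robust, TMM scaling, filterByExpr, group as the only term) on all 13084 genes kept, with Benjamini-Hochberg adjustment at 0.05. SE is the absolute log2 fold change over the square root of the F statistic, and intervals are 95%. RPKM used the union of annotated exons (GENCODE M21), and gene positions, counted from 1, are from RefSeq. The script was tested on simulated data. Alternatives were other scalings and filters, limma 3.58.1 voom, the Wald test of DESeq2 1.42.0, a GC content and length correction, the replicate number as a block and leaving out each library.

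The 9 members and all lists were chosen with earlier results of these data known. All members are described. Other MMP and inhibitor genes are named where tested, and from each other list up to 4 genes past the threshold with the largest change. The AP-1 factors, Atf3, Furin, Plau, Plaur, Bsg, Cd44, the NF-κB genes, Sdc4 and genes listed at 0 were named after their values were seen. Likeness covers the 5 nearest genes to Mmp3 and to Timp1, of which 1 is not reported here. No pair of replicates agreed within sampling noise (chi-square per degree of freedom 6.366 to 23.28). The study calls the libraries biological triplicates, and the labels do not say how the cultures were kept apart, so p-values measure the spread between these libraries.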

Additional observations from a re-analysis of the deposited data

How the results depend on the processing

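Mmp3, Mmp9 and Mmp13 kept their direction and their call in all 16 alternative fits, with log2 fold changes of -0.75 to -0.67, -0.69 to -0.58 and -0.80 to -0.72. The 10 fits that kept every library called the same number of members, 5 lower and 0 higher. Leaving out a library gave 3 to 5 members lower: Mmp10 (-0.32 to -0.19) and Timp2 (-0.20 to -0.18) were not called without any one untreated library, nor Mmp10 without doxycycline-labelled replicate 3. Mmp14 and Timp1 were called in 0 of 16, and Mmp15, also never called, ranged from -0.06, reversed in sign, without doxycycline-labelled replicate 2 to 0.30 without untreated replicate 3.

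Over all genes, 283 were lower and 121 higher. Without a filter on low counts these were 439 and 210, and the DESeq2 Wald test gave 358 and 185. With the GC content and length correction they were 480 and 375, a more even split, and together with the replicate block 448 and 324. Leaving out a library gave 116 to 487 lower (fewest without untreated replicate 3, most without doxycycline-labelled replicate 2) and 44 to 269 higher. The causes were not tested. The replicate block alone gave 300 lower and 118 higher and changed no member's call. Same-numbered libraries did not deviate together (correlations -0.0399, -0.00449 and 0.0176). With 3 libraries per group this cannot exclude that they were handled together, which the labels do not state. Medians of all genes moved between -0.0074 and 0.0077. Depth limited Mmp15, whose 95% interval ran from -0.34 to 0.59, and Timp3, which was not tested.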

Other observations

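The AP-1 letters of the promoters of Mmp3, Mmp10 and Mmp13 were followed through the table after those values were seen, as a description with no test. These letters and TATAAA were followed because those 3 MMPs carry them, and the 3 count in both shares below. Nothing is read from those shares. Of 9798 tested genes with a RefSeq promoter sequence, 204 were called lower and 88 higher, beside 2.16% and 0.925% of all tested genes. Of the 422 with TGAGTCA or TGACTCA in a promoter window, 18 were lower (4.27%, the 3 MMPs among them) and 4 higher, and the median log2 fold change was -0.02. With TATAAA in a window of the gene as well, 46 were tested, 6 were lower (13.04%) and 0 higher, with a median of -0.06. Beside the 3 MMPs these were Ecm1, an extracellular matrix glycoprotein (43.6 ± 1.54 against 33.0 ± 0.742 CPM, -0.40 on the log2 scale with SE 0.06, adjusted p 5.58e-04 by edgeR), Mgst2, a microsomal glutathione transferase (-0.43, SE 0.09, edgeR adjusted p 0.0116), and Palld, which encodes the actin-bundling protein palladin (-0.23, SE 0.05, edgeR adjusted p 0.00692).

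The 4 higher genes with the AP-1 letters were Msmo1, a cholesterol synthesis enzyme (208.0 ± 3.09 against 291.1 ± 23.0 CPM, log2 fold change 0.48), Ippk (0.30), Adam19 (0.28) and Leng8 (0.22). Adam19, a metalloprotease with TGAGTCA or TGACTCA in a window, differed in the other direction from Mmp3. The part of the letters in these values was not tested. Among the other genes with the letters that were called lower, the largest falls were those of Adssl1 (-0.89), Car9, a carbonic anhydrase (-0.87), Mt2, a metallothionein (-0.79), and Col6a1, a chain of type VI collagen (-0.51), the 3 MMPs apart.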
